A study of Mus musculus with 4 samples.

Results

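The genes that make, recycle and destroy retinoic acid were surveyed for open chromatin, and for its loss without AP-2, in the surface ectoderm of the mouse face. The set held 8 genes, chosen by name: Rdh10, Aldh1a1, Aldh1a2, Aldh1a3, Cyp26a1, Cyp26b1, Cyp26c1 and Dhrs3, out of 21853 protein-coding genes that were given a start site. A peak was assigned to a gene when its centre lay within 100 kb of the start site of the gene's principal transcript, whatever other genes lay between. By this rule 58 of 65467 control peaks and 9 of 3103 AP-2-dependent regions belonged to the set. A control peak is a stretch of nucleosome-free DNA called in control ectoderm. An AP-2-dependent region, or region for short, is a stretch more accessible in control than in mutant ectoderm.

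The chromatin came from ATAC-seq, in which a transposase cuts and tags open DNA, with 50000 cells per sample. Ectoderm was taken at E11.5 and pooled over the prominences that build the face. The 2 control samples were littermates without the Crect transgene, of genotype Tfap2a flox/+; Tfap2b flox/+. The 2 mutant samples (EDKO) were Crect; Tfap2a flox/flox; Tfap2b flox/flox, so they lost the transcription factors AP-2α and AP-2β wherever Crect had recombined both floxed genes. Crect drives Cre from an intronic enhancer of Tfap2a, is active in the early ectoderm, and can recombine more widely in some crosses. Floxed alleles were therefore present in both groups, heterozygous in controls and homozygous in EDKO. The libraries of a call were combined, so no peak has a value per library or an error between replicates, and no test between samples could be made. Intervals below are 95% Wilson intervals and cover counting error only, with peaks treated as if independent.

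Retinoic acid is made from vitamin A in a pair of oxidation steps. Rdh10 oxidises retinol to retinaldehyde, Dhrs3 reduces retinaldehyde back to retinol, and Aldh1a1, Aldh1a2 and Aldh1a3 oxidise retinaldehyde irreversibly to retinoic acid. Cyp26a1, Cyp26b1 and Cyp26c1 are cytochrome P450 enzymes that hydroxylate and so inactivate retinoic acid, which sets local limits to the signal. Retinoic acid binds nuclear receptors (RAR, paired with RXR) that sit on response elements built from direct repeats, and in the embryonic face too little or too much of it causes malformations.

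AP-2-dependent regions lay near 5 of the 8 genes (Rdh10, Aldh1a3, Cyp26a1, Cyp26c1 and Dhrs3), against 20.2% of all protein-coding genes. Cyp26a1 and Cyp26c1 are neighbours and shared all 5 of their regions. Sequences are shown for 5 of the regions and 1 promoter, because these carry what is described below: the region with the largest area, the only region at a start site, the region inside Cyp26c1, both regions with a consensus AP-2 string, and the only retinoic acid response element string found. Each region is given as the 201 bases around its summit on the plus strand of GRCm38, in lower case. Capitals mark the AP-2 string GCCNNNGGC in the Aldh1a3 and upstream Cyp26c1 windows and the TEAD string GGAATG in the Rdh10 window. The Dhrs3 window and the window within Cyp26c1 hold neither string. The Cyp26a1 promoter is the RefSeq sequence (GRCm38.p6) of the 250 bases before its RefSeq start, also on the plus strand. That start lies 10 bp downstream of the one used for distances. Its first capitals are the AP-2 string, and the second are a direct repeat with a spacing of 5 bases (DR5).
Rdh10, 81.7 kb upstream (chr1:16024052-16024252): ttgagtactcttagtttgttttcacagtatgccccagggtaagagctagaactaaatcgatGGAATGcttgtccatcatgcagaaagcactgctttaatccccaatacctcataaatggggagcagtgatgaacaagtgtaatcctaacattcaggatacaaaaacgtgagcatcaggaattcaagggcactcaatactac
Dhrs3, 0.758 kb upstream (chr4:144892130-144892330): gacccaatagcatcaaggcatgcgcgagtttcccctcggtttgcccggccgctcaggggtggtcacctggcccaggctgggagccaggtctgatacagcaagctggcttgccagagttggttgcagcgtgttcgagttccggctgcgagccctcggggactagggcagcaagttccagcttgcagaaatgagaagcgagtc
Aldh1a3, 15.6 kb upstream (chr7:66443022-66443222): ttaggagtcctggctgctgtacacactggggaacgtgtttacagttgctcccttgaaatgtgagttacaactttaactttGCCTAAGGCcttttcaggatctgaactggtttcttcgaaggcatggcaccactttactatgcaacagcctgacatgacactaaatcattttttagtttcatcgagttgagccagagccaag
Cyp26c1, 12.6 kb upstream (chr19:37672973-37673173): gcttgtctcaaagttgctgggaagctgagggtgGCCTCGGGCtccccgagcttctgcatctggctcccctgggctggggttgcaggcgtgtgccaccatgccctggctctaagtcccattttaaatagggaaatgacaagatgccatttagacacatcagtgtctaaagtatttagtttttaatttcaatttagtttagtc
Cyp26c1, 1.46 kb downstream of its start (chr19:37687017-37687217): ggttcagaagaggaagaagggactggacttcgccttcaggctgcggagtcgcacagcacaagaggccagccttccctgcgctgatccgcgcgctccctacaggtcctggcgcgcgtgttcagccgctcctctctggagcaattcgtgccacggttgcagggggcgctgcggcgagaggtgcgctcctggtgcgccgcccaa
Cyp26a1 promoter (chr19:37697558-37697807): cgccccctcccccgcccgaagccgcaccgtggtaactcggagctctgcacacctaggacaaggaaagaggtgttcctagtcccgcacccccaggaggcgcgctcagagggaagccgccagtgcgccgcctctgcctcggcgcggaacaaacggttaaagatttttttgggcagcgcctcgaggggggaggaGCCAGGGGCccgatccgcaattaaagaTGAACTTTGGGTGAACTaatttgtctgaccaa

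The plot of peaks by distance shows how unevenly the 8 genes were furnished. Control peaks numbered 3 at Aldh1a1, 4 at Dhrs3, 5 at Aldh1a2, 6 at Rdh10, 8 at Cyp26b1, 13 at Aldh1a3, 18 at Cyp26c1 and 19 at Cyp26a1. Over all protein-coding genes the median was 8 peaks, with quartiles of 4 and 13. Cyp26a1 had more peaks than 89.0% of genes, Cyp26c1 more than 87.2% and Aldh1a3 more than 73.1%, whereas Aldh1a1 exceeded 19.0%. The 4 synthesis genes and the 3 degradation genes each had 27 control peaks, with the 18 that Cyp26a1 and Cyp26c1 share counted once. Their median strengths were close, at a summit −log10 p of 5.08 for synthesis and 4.98 for degradation. Here −log10 p is the peak caller's unadjusted p-value at the highest point of the peak, and a larger value means a stronger peak. For the 58 peaks together the median was 5.05, beside 5.10 for all control peaks, and the median width was 578 bp beside 560 bp.

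**Figure D1:**
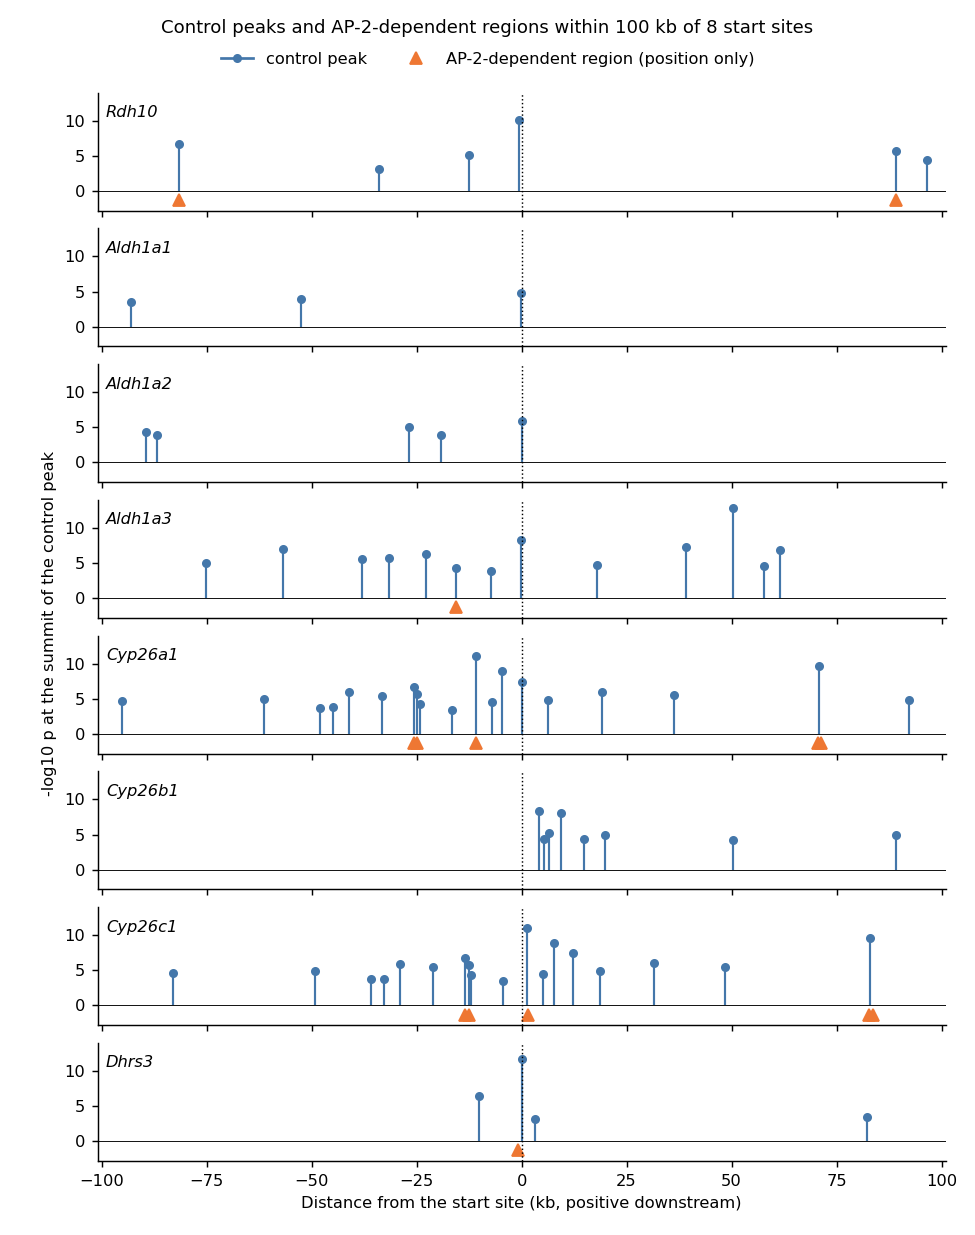
Control peaks (blue stems, height the −log10 p at the summit) and AP-2-dependent regions (orange triangles, position only) by distance from the start site of each of the 8 genes, in kb. Cyp26a1 has 19 control peaks, Aldh1a1 has 3, and all 8 peaks of Cyp26b1 lie downstream of its start site, while regions appear at Rdh10, Aldh1a3, Cyp26a1, Cyp26c1 and Dhrs3.

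A control peak was centred within 1 kb of the start site in 6 of the 8 genes, against 63.2% of all protein-coding genes. The strongest of these lay at Dhrs3, with a summit −log10 p of 11.8 and a width of 5070 bp. The Rdh10 peak reached 10.1 over 3271 bp. Both were wide for peaks at start sites, whose median width was 1315 bp, with an upper quartile of 1813 bp. The other start-site peaks were weaker than the median of 9.22 for such peaks: 8.31 at Aldh1a3, 7.41 at Cyp26a1, 5.97 at Aldh1a2 and 4.83 at Aldh1a1. The values of Aldh1a2 and Aldh1a1 fell below the lower quartile of 6.82. Cyp26b1 and Cyp26c1 had no peak centred within 1 kb. Their nearest peaks began 3135 bp and 478 bp downstream of their start sites, so the Cyp26c1 peak reached within 1 kb. With the start sites of all protein-coding transcripts, 7 of the 8 genes had a peak centred within 1 kb. The 63.2% above counts 1 start site per gene, and the matching share for all transcripts is not given here. Presence of a peak is a measure of accessibility and not of expression.

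**Figure D2:**
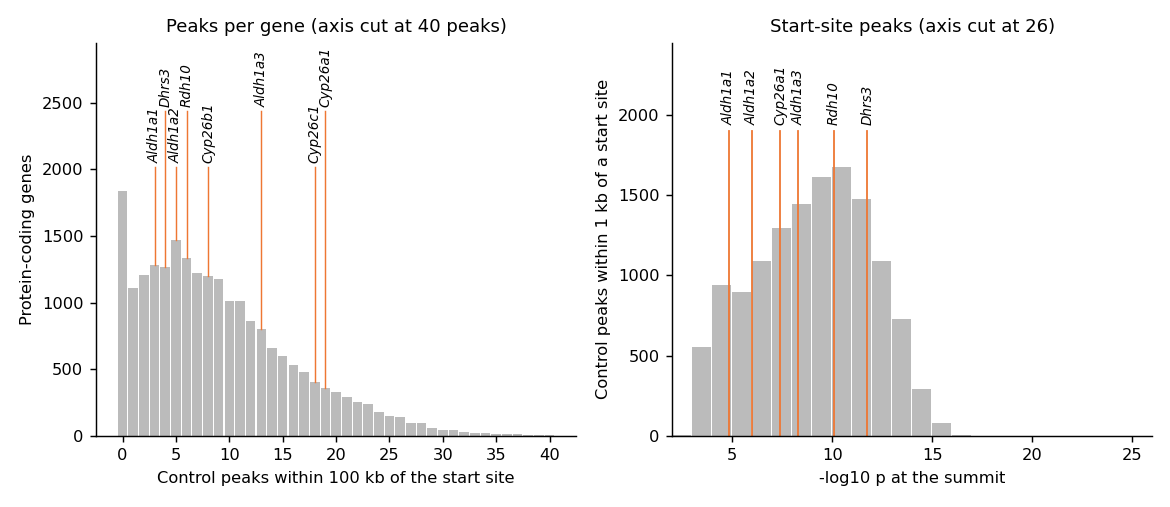
Left, number of protein-coding genes (grey bars) by control peaks within 100 kb of the start site. Right, control peaks centred within 1 kb of a start site (grey bars) by −log10 p at the summit. Orange lines mark the named genes, with Aldh1a1 lowest on both axes, Cyp26a1 highest on the left at 19 peaks and Dhrs3 highest on the right at 11.8.

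Among the genes for synthesis, Rdh10, which makes retinaldehyde and limits the supply for all 3 Aldh1a enzymes, had 2 regions among 6 control peaks. One lay 81.7 kb upstream (chr1:16023898-16024284, 387 bp) and had a summit −log10 p of 4.48 and an area of 562. The area sums, over the bases of the peak, how far −log10 p rises above the caller's p threshold, and a peak needed an area of at least 200. The other lay 89.2 kb downstream (chr1:16194887-16195134, 248 bp), with a summit −log10 p of 4.46 and an area of 367. Both were intergenic and both filled most of the control peak that held them, 78.7% and 64.8%. The upstream region was nearer to the start sites of 4930444P10Rik, at 69.2 kb, and Rpl7, at 80.6 kb. It was the only one of the 9 regions whose nearest protein-coding start was not in the set. The strong peak over the Rdh10 start site, which also lay near the start of Rpl7, overlapped no region.

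Aldh1a3, the retinaldehyde dehydrogenase known from the olfactory and ocular ectoderm, had 1 region among 13 control peaks. It lay 15.6 kb upstream (chr7:66443020-66443205, 186 bp) in an exon of the lincRNA Gm44753, with a summit −log10 p of 3.93. Its area of 209 was just above the calling threshold. The strongest of the 13 control peaks, with a summit of 12.8 and at percentile 97.6 of all control peaks, lay 50.4 kb downstream in intron 2 of Lrrk1 and overlapped no region. The Aldh1a3 start-site peak overlapped none either. Aldh1a1 and Aldh1a2, the latter the main source of retinoic acid in early embryonic mesoderm, had no region, and their strongest control peaks were those at their start sites. All 3 peaks of Aldh1a1 lay at or upstream of the start used. Their summits nevertheless fell within an Aldh1a1 intron when every annotated transcript of the gene is counted. A peak 19.3 kb upstream of Aldh1a2 lay in repeated sequence, its 31-base words occurring a median of 2174 times in the genome. A Rdh10 peak 33.9 kb upstream had 17 such copies. The other 56 control peaks and all 9 regions were in single-copy sequence.

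The start sites of the degradation genes Cyp26c1 and Cyp26a1 lie 12.2 kb apart on chromosome 19 in the same direction, downstream of Exoc6. Of the 19 control peaks within 100 kb of either, 18 were within 100 kb of both, and a peak cannot be given to one gene or the other from position. The 5 regions stood at 3 places, when regions with gaps of at most 2 kb are joined. The first place was in intron 20 of Exoc6, where a region 13.5 kb upstream of Cyp26c1 (chr19:37671889-37672323, 435 bp) and another 12.6 kb upstream (chr19:37672786-37673120, 335 bp) were 462 bp apart. Both had a summit −log10 p of 3.84, and their areas were 335 and 288. The second filled 91.0% of its control peak and the first 41.7%. As many as 5 regions, or more, lay near 94 protein-coding genes (0.43%).

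The second place was within Cyp26c1 itself. A region of 244 bp (chr19:37686919-37687162), 1.46 kb downstream of the start, had its summit in intron 2, with a −log10 p of 4.50 and an area of 310. The region filled 13.5% of a control peak of 1803 bp that was the strongest of the locus, at 11.0. The third place lay between genes, 70.6 kb and 71.4 kb downstream of the Cyp26a1 start (chr19:37768124-37768572, 449 bp, and chr19:37768863-37769437, 575 bp). These regions were 290 bp apart in the same control peak of 1688 bp, whose summit reached 9.64. Their own summits were 4.52 and 3.38, and their areas 412 and 213, the latter just above the calling threshold. The 2971-bp peak at the Cyp26a1 start site, with a summit of 7.41, overlapped no region.

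**Figure D3:**
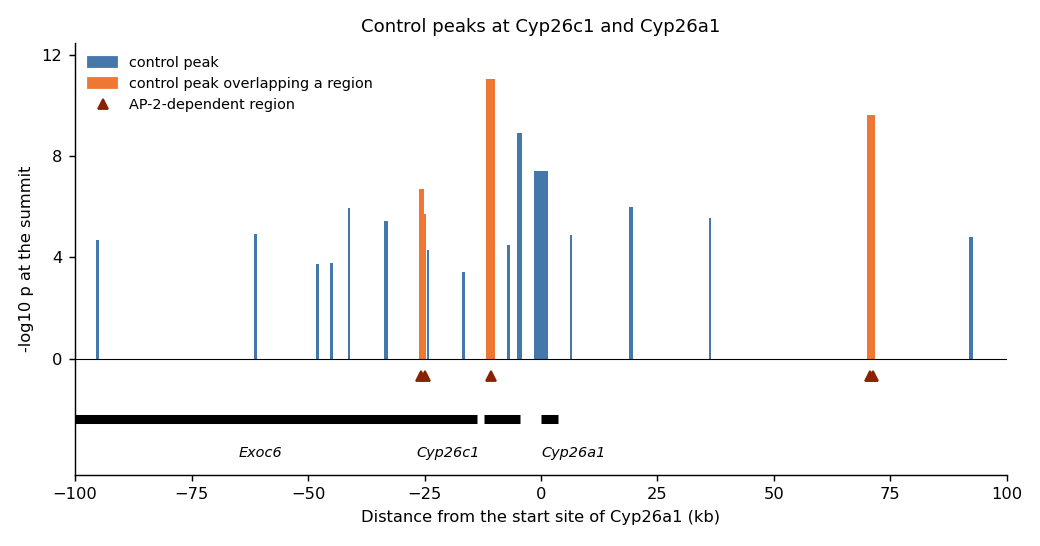
Control peaks at the Cyp26c1 and Cyp26a1 locus by distance from the Cyp26a1 start site in kb, with bar height the −log10 p at the summit, bar width the peak width (0.5 kb at least), and black bars the annotated genes. The 4 orange control peaks overlap a region, and the brown triangles mark the 5 regions, which fall at 3 places away from the Cyp26a1 start-site peak.

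Cyp26b1, on chromosome 6, had 8 control peaks and no region. All 8 lay downstream of the start site, from 4.06 kb to 89.2 kb. The strongest was also the nearest, in intron 1, with a summit −log10 p of 8.30 and a width of 1840 bp. A peak of 2607 bp in intron 3 followed closely at 8.09. No control peak was called in the 100 kb upstream.

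Dhrs3, which returns retinaldehyde to retinol, had the only region of the 9 centred within 1 kb of a start site, a position held by a region in 0.636% of protein-coding genes. It lay 0.758 kb upstream (chr4:144892167-144892471, 305 bp), with a summit −log10 p of 4.61, the highest of the 9, and an area of 322. It filled 6.02% of the 5070-bp start-site peak, so the called difference covered a small stretch of a wide open promoter. The other 3 control peaks of Dhrs3 had no region.

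Taken by peak, 8 of the 58 control peaks (13.8%, interval 7.16 to 24.9) overlapped a region by at least 1 bp. The share was 4.48% of all control peaks and 3.65% of control peaks within 100 kb of any protein-coding start site. At Cyp26a1 and Cyp26c1 it was 4 of 19 (21.1%, 8.51 to 43.3), and at the other 6 genes 4 of 39 (10.3%, 4.06 to 23.6). The lower limit for the other 6 genes falls between 3.65% and 4.48%. That position is not a test, because the interval treats peaks as independent and the split by locus was added after seeing the data. By distance to the nearest start site, 2 of 15 set peaks within 5 kb overlapped a region against 1.52% of all control peaks in that class, 3 of 30 between 5 and 50 kb against 4.56%, and 3 of 13 beyond 50 kb against 7.09%. The 8 overlapping control peaks had a median summit −log10 p of 6.72, against 4.93 for the other 50. Over all control peaks the medians were 6.92 with a region and 5.02 without.

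**Figure D4:**
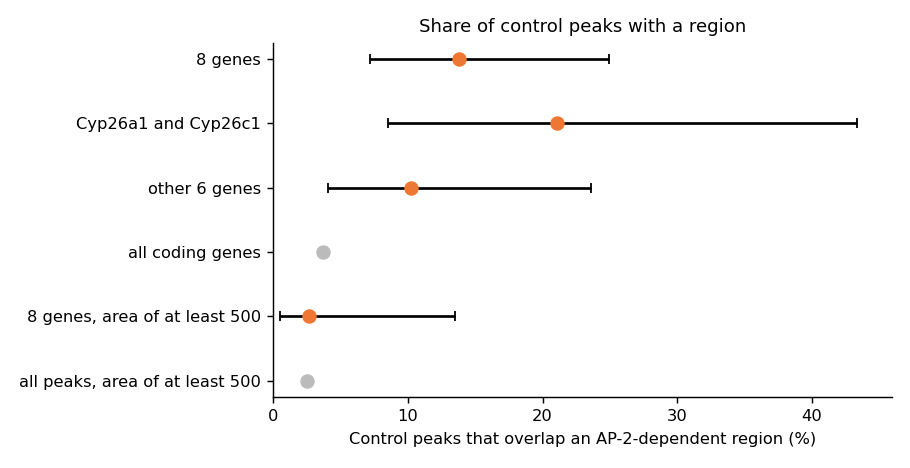
Share of control peaks that overlap an AP-2-dependent region, in percent, with 95% Wilson intervals, for the 8 genes (orange) and for all genes or peaks (grey). The 8 genes are at 13.8% with every peak counted, and at 2.63%, beside 2.46% for all control peaks, when peaks and regions need an area of at least 500.

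The overlap rested on weak regions. When an area of at least 500 was required of both lists, 1 of the 9 regions was left (Rdh10, 81.7 kb upstream), whereas 36.4% of all regions passed. The protein-coding start site nearest to that region was that of 4930444P10Rik and not that of Rdh10. The overlap was then 1 of 38 control peaks (2.63%, 0.466 to 13.5), beside 2.46% of all control peaks, and 1 of the 8 genes had a region, beside 7.9% of all protein-coding genes. The area was below the median of all regions (395) in 7 of the 9, and their own median was 322. Summit −log10 p ran from 3.38 to 4.61 with a median of 4.46, close to the median of 4.40 for all regions, and the highest of the 9 did not reach the upper quartile of 5.40. The regions also filled less of their control peaks, with a median of 41.7% against 62.8%.

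**Figure D5:**
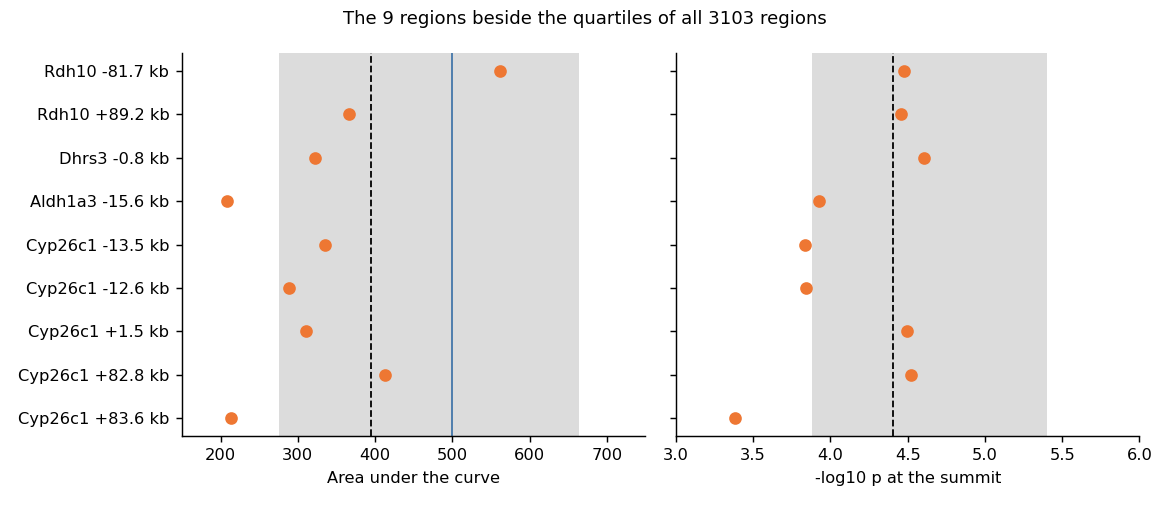
Area under the curve (left) and −log10 p at the summit (right) of the 9 regions, named by the gene and the distance of the region's centre from its start site in kb. Grey bands span the quartiles of all 3103 regions, dashed lines are their medians and the blue line is an area of 500, passed by the Rdh10 region at 562 alone.

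Strings in the sequence were searched on both strands within 100 bp of each summit. The AP-2 string was present in 2 of the 9 regions (22.2%, 6.32 to 54.7), close to the share in all regions (22.7%). It was present in 10 of the 58 control peaks (17.2%, 9.64 to 28.9), beside 14.4% of all control peaks. The 2 regions were that of Aldh1a3, with gcctaaggc at chr7:66443102-66443110, and that 12.6 kb upstream of Cyp26c1, with gcctcgggc at chr19:37673006-37673014. The same string with a spacer of 4 bases occurred in 2 others, the downstream Rdh10 region and the region within Cyp26c1. That form was present in 17.6% of all regions. The TEAD string was in 3 of 9 regions (33.3%, 12.1 to 64.6), beside 19.2% of all. A match is a description of the letters and not evidence of binding.

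Retinoic acid response elements were searched as direct repeats of the site AGGTCA or AGTTCA, with G also allowed as the first letter, at a spacing of 5, 2 or 1 bases. No DR5 lay within 100 bp of a summit in the 58 control peaks, which allows a share of up to 6.21%, or in the 9 regions. Of all control peaks 0.0551% held one there, and the other spacings were likewise absent from the set. In whole peaks a single repeat was found, a DR5 in the start-site peak of Cyp26a1. It reads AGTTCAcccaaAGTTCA on the minus strand at chr19:37697776-37697792 and begins 22 bp upstream of the start site. A DR5 occurred in 32 of 32851 RefSeq promoters (0.0974%). RefSeq promoters were matched for 6 of the 8 genes and not for Rdh10 and Aldh1a3. These 6 genes had 9 promoters. The AP-2 string was in 3 of the 9, those of Aldh1a2, Cyp26a1 and Cyp26b1, beside 16.6% of all promoters. Neither the Aldh1a2 nor the Cyp26a1 start-site peak overlapped a region.

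The rest of the retinoid pathway was read from a list of 40 genes, chosen with earlier results of these data known. Of these genes, 39 were in the annotation. A region lay within 100 kb of 11 of the 39 (28.2%), beside 20.2% of all protein-coding genes. With an area of at least 500 this held for 4 of the 39, beside 7.9% of all protein-coding genes. Among 6 nuclear receptors, Rarb, Rarg and Rxra had regions. Rxra, the common partner of the receptors, had 2, at 26.3 kb and 67.9 kb downstream, and the nearer one held the AP-2 string. The Rarg region lay 5.24 kb upstream with a summit −log10 p of 5.82, and the Rarb region 22.7 kb upstream with 3.76. The corepressor Tgif1 had 1 region with the AP-2 string, 37.6 kb upstream. Crabp1, which binds retinoic acid in the cytoplasm, had 1 region, with a summit of 5.82, at 36.9 kb downstream. Of 15 other oxidoreductase genes 5 had a region. Of the alcohol dehydrogenase genes on chromosome 3, Adh1 had 3 regions and Adh7 had 2 of these. Adh4 and Adh5 each had 1 of them, the same one. Only 1 of the 3 was nearest to Adh1, and the others were nearest to Adh6a and Adh6b, which were not on the list. Rdh5 had 1 that was nearer to Gdf11. None of the 8 genes for retinol supply and storage had a region. For 7 of the 11 genes a region was nearer to them than to any other protein-coding start.

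The limit of 100 kb decided the membership of some regions. Just inside it were the Rdh10 region 89.2 kb downstream and the control peak 96.6 kb downstream of Rdh10 (summit 4.47). Just outside were regions 107 kb and 108 kb downstream of Rdh10, with areas of 630 and 365, and a control peak 100.5 kb downstream of Dhrs3 (summit 4.54). Among cell type markers, a control peak within 1 kb of the start site was present for 9 of 10 of surface ectoderm (Grhl3 lacked one). It was present for 9 of 9 of mesenchyme and neural crest, 0 of 3 of endothelium and 0 of 4 of blood. The share over all protein-coding genes was 63.2%. These counts cannot tell ectoderm from mesenchyme and neural crest. What cells other than ectoderm contributed to the peaks was not tested. Whether a region reflects fewer cells of a type or less accessible DNA per cell cannot be told apart in pooled tissue.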

How the data were processed

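ATAC-seq was made from 2 control and 2 EDKO samples of E11.5 facial surface ectoderm. The authors removed adapters with NGmerge, mapped read pairs to mm10 with Bowtie2, keeping up to 10 placements of a pair (-k 10), and called peaks with Genrich (v0.5) in ATAC-seq mode, without PCR duplicates or chrM. One call took both control libraries, the other set them against the EDKO libraries as background. The deposited lists give a score (1000 times the area divided by the width, capped at 1000, which held for all 65467 and 3103 entries), the area that −log10 p covers above its threshold (a score too, from the same program), an unadjusted −log10 p at the summit, and the summit offset. The study's methods give 1 approximate sequencing depth for the samples. Reads per library or per peak are not in these lists. EDKO-only peaks, tracks and expression were not analysed here.

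Coordinates count from 1 on GRCm38. Start sites were those of APPRIS principal transcripts (GENCODE mouse release 21). The 169 control peaks and 31 regions off the 21 chromosomes entered counts only. Overlap was 1 bp or more. Copy number was the median genomic count of a peak's 31-base words. Python 3.11.15, numpy 2.4.6, pandas 2.3.3, scipy 1.17.1 and matplotlib 3.10.9 were used. The overlap, string and copy-number steps were tested on simulated data.

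The genes and gene lists were chosen with earlier results of these data known. Named were the 8 genes, each region within 100 kb of them, the nearest and strongest control peak of each gene, and the listed pathway genes with a region, of which 1 is not reported here. A few further control peaks were named after their values were seen. No test was run, because a peak is not a replicate. Alternatives are given in the closing section.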

Additional observations from a re-analysis of the deposited data

How the results depend on the processing

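For 8 results, 50 alternative values were computed, of which 35 stayed within the interval or within 1.5 times the main value and 15 did not. An area of at least 500 left 38 control peaks, 1 region, an overlap of 2.63%, 1 gene with a region, the AP-2 string in 0% of regions and 4 other pathway genes. A window of 50 kb left 5 regions and 6 pathway genes. A window of 250 kb gave 112 control peaks, 14 regions and 17 pathway genes. Requiring an overlap of 50% of both intervals lowered the share to 6.90%, beside 2.87% of all control peaks. Regions nearest to their own gene were found at 7 pathway genes. Over whole peaks the AP-2 string occurred in 34.5% of the set's control peaks. The whole-peak share over all control peaks is not given here. Without the Cyp26a1 and Cyp26c1 locus, an alternative added after seeing the data, 4 regions were left, and joining regions with gaps of at most 2 kb, also added later, left 7. The cause was not tested, apart from the smaller or larger window itself.

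No paired analysis was possible because each call merged its libraries, and for the same reason no library was left out. The lists give no reads per peak, and the absence of a region at Aldh1a1, Aldh1a2 and Cyp26b1 shows only that none was called.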

Other observations

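Control peaks with other strings at the summit were spread over the set. The CTCF string was found in 3 of the 58 control peaks (5.17%, 95% Wilson interval 1.77 to 14.1), beside 6.21% of all control peaks. These were a peak 26.8 kb upstream of Aldh1a2, a peak 18.0 kb downstream of the Aldh1a3 start and the strongest peak of Cyp26b1 in intron 1. None of the 3 overlapped a region. The p53 family string was found in 6 of the 58 (10.3%), beside 8.68% of all control peaks. Of the 9 regions 1 held it (11.1%), that at the Dhrs3 promoter, close to the share in all regions (10.55%).

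Between 100 kb and 250 kb from the 8 start sites lay 5 further regions. The 2 downstream of Rdh10, at 107 kb and 108 kb, had Rdh10 as the nearest protein-coding start, and the first of them held the AP-2 string. With the region at 89.2 kb they made 3 regions downstream of Rdh10. The other 3 were nearer to Vps13d, Chsy1 and Asb7, at 172 kb from Dhrs3 and at 226 kb and 241 kb from Aldh1a3.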
